A study of Mus musculus with 6 samples.

Results

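The report concerns 8 transcripts that mark cholangiocytes, the epithelial cells lining the bile ducts, and the ductular reaction, the expansion of small ducts seen in injured liver. They are Krt7, Krt19, Krt23, Epcam, Sox9, Sox4, Cftr and Pkhd1. Each was taken as the row of the deposited gene count table that carries its symbol, and all 8 of the 43346 genes in the table were found and tested. Bulk RNA was sequenced from livers of mice fed the FFC diet, used here as a dietary model of metabolic dysfunction-associated steatohepatitis (MASH). In 3 libraries (numbered 2, 3 and 2600) the title names an shRNA with S100a11 as its target and the genotype reads knockdown (KO). In the other 3 (28, 30 and 31) the title names a scrambled shRNA and the genotype reads control. The series describes silencing with an AAV8 construct. Not given in the sources used here are strain, age, sex, how long the diet lasted and the promoter of the construct. All 6 libraries came from liver of mice on the diet, so no level in a healthy liver is available for comparison. Nothing in the labels says that the libraries are separate animals, so the p-values measure the spread between these samples, which may be technical.

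Bile ducts carry bile from the hepatocytes to the gut, and the cholangiocytes that line them modify it by secreting chloride, bicarbonate and water. During chronic injury, duct-like cells increase around the portal tracts, arising from cholangiocytes and, in some settings, from hepatocytes that take up a duct-like programme. Keratins 7 and 19 and the adhesion molecule Epcam are standard tissue markers of these cells, whereas Sox9 also appears in hepatocytes near the portal tract, and Sox4 and Krt23 are made by several cell types.

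The libraries held 53517387 to 78091845 counts over genes, and the precision of each count depends on this depth. TMM scaling factors, which adjust library totals for composition, were 0.822 to 0.932 in the S100a11 shRNA libraries and 1.10 to 1.19 in the scrambled libraries. Library 2600 stood apart, with 10.8% of its counts on a single non-coding transcript, Gm26917, beside 3.16% to 6.44% elsewhere, and with 81.7% on protein-coding genes beside 87.1% to 91.5%. The falls of 7 members described below were also called without library 2600. S100a11 stood at 16, 3.55 and 3.41 CPM (counts scaled to the TMM-adjusted size of the library) in libraries 2, 3 and 2600, and at 15.9, 22.9 and 30.0 CPM in libraries 28, 30 and 31. Library 2, labelled S100a11 shRNA, therefore held as much S100a11 as scrambled library 28. The S100a11 change was -1.57 ± 0.56 (log2, SE) and did not pass the threshold (edgeR quasi-likelihood test, Benjamini-Hochberg adjusted p = 0.0951), and without library 2 it was -2.75 (edgeR adjusted p = 0.000441). Every direction below is that of the libraries labelled S100a11 shRNA, and values for library 2 are given throughout.

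Of the 8 markers, 7 were lower in the S100a11 shRNA libraries and 1, Krt23, was higher. These counts use an adjusted p under 0.05 in edgeR, which called 8.28% of the 19352 tested genes lower and 5.82% higher (14.1% in all). The median log2 change of the 8 was -1.79, beside 0.04 over all tested genes. For each of the 8, the 3 libraries of one group lay wholly on one side of the 3 of the other, where 18.1% of tested genes did so with the S100a11 shRNA group lower and 16.5% with it higher. In library 2 the 7 lower markers stood at 12.1% to 38.5% of their scrambled means, in library 3 at 3.75% to 37.2% and in library 2600 at 18.9% to 45.8%. S100a11 in library 2 was at 69.8% of its scrambled mean, beside 69.3% in scrambled library 28. Whether the S100a11 level and the duct markers are linked was not tested. In bulk liver RNA, fewer cells of a type and less RNA per cell cannot be told apart.

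**Figure D1:**
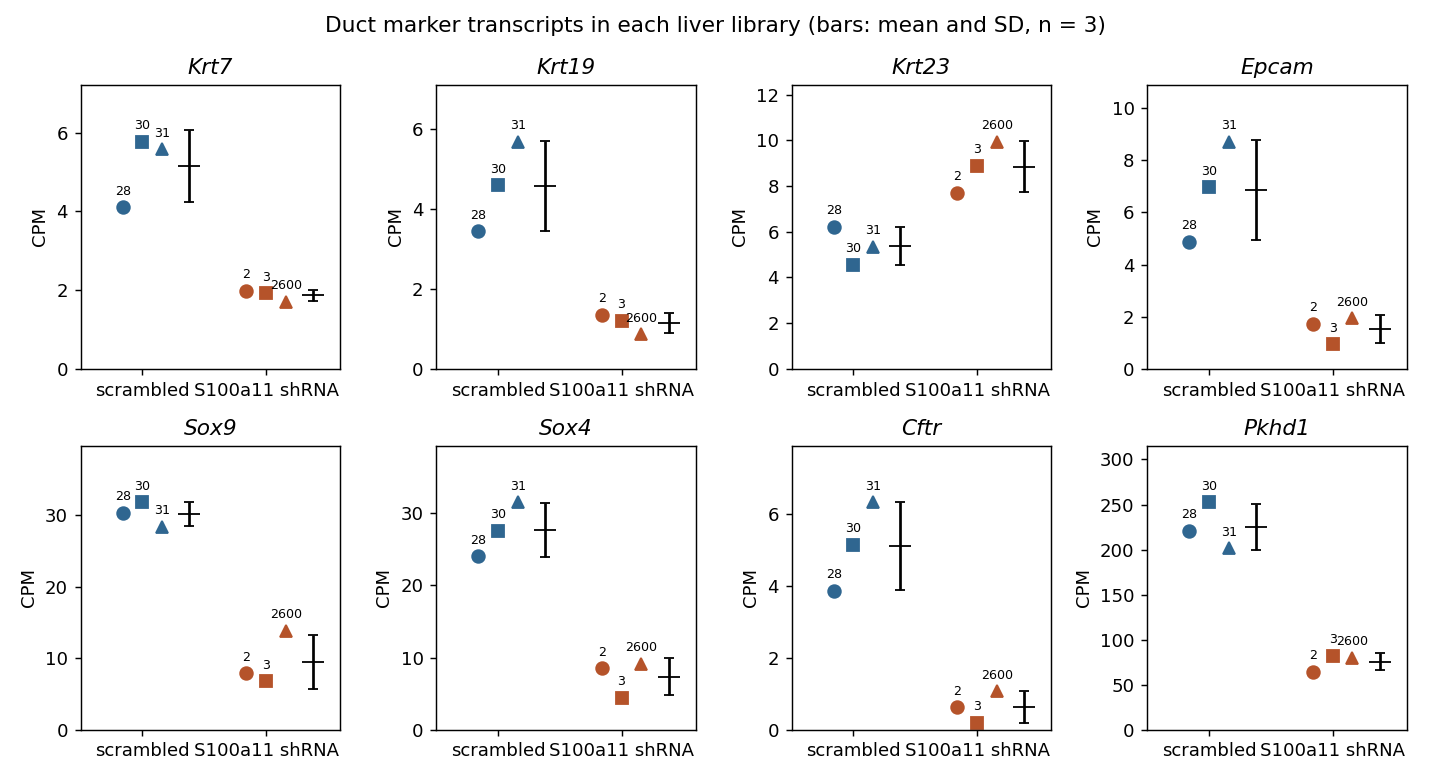
Each panel shows 1 marker in CPM (vertical axis, from 0) for the scrambled and S100a11 shRNA libraries, labelled by number, with the group mean and SD (n = 3 each) in black. In 7 panels the S100a11 shRNA libraries sit below all scrambled libraries, and in the Krt23 panel they sit above them.

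Krt7 and Krt19 are intermediate filament proteins of simple epithelia, and in normal liver they are largely restricted to bile ducts. Krt7 (ENSMUSG00000023039; mm10 chr15:101411043-101430313, plus strand, a protein-coding gene) was 1.98, 1.92 and 1.71 CPM in libraries 2, 3 and 2600, and 4.10, 5.77 and 5.58 CPM in libraries 28, 30 and 31. The 3 S100a11 shRNA libraries were close to each other and none reached the scrambled range. The means were 1.87 ± 0.145 and 5.15 ± 0.913 CPM (SD, n = 3 each), 2.75-fold lower (log2 change -1.46 ± 0.21, SE; edgeR adjusted p = 0.00589). Krt19 (ENSMUSG00000020911; mm10 chr11:100140810-100148665, minus strand) was 1.35, 1.20 and 0.864 CPM against 3.43, 4.58 and 5.67 CPM in the same order of libraries. The lowest Krt19 value was in library 2600 and the highest in library 31, and the groups did not overlap. Krt19 was 3.97-fold lower, with means of 1.14 ± 0.248 and 4.56 ± 1.12 CPM (SD, n = 3 each; log2 change -1.99 ± 0.27, SE; edgeR adjusted p = 0.00492).

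Epcam encodes a homophilic cell adhesion molecule of epithelia that adult hepatocytes largely lack and that ducts and hepatic progenitor cells carry. It (ENSMUSG00000045394; mm10 chr17:87635979-87651106, plus strand) was 1.72, 0.943 and 1.93 CPM in libraries 2, 3 and 2600 against 4.87, 6.96 and 8.71 CPM in libraries 28, 30 and 31. Library 3 was the lowest and library 31 the highest, with a clear gap between the groups. Epcam was 4.51-fold lower, from 6.85 ± 1.92 to 1.53 ± 0.521 CPM (SD, n = 3 each; log2 change -2.17 ± 0.32, SE; edgeR adjusted p = 0.00578).

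Sox9 and Sox4 are HMG-box transcription factors that act together in the development of bile ducts. Sox9 (ENSMUSG00000000567; mm10 chr11:112782224-112787760, plus strand) was 7.87, 6.78 and 13.8 CPM in libraries 2, 3 and 2600 and 30.3, 31.8 and 28.4 CPM in libraries 28, 30 and 31. The scrambled libraries were nearly level, while library 2600 held more Sox9 than the other S100a11 shRNA libraries and still less than any scrambled one. The fall was 3.19-fold, from 30.2 ± 1.70 to 9.49 ± 3.79 CPM (SD, n = 3 each; log2 change -1.67 ± 0.25, SE; edgeR adjusted p = 0.00621). Sox4 (ENSMUSG00000076431; mm10 chr13:28948919-28953713, minus strand), a gene with a single exon, was 8.49, 4.46 and 9.16 CPM against 24.1, 27.6 and 31.5 CPM. Every scrambled library held more Sox4 than every S100a11 shRNA library, and library 3 was again the lowest. Sox4 was 3.77-fold lower, with means of 7.37 ± 2.54 and 27.7 ± 3.72 CPM (SD, n = 3 each; log2 change -1.91 ± 0.26, SE; edgeR adjusted p = 0.00492). A lincRNA, Gm26735, overlaps the Sox4 exon on the other strand, and its count was at most 1.43% of that of Sox4 in any library.

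No other tested SOX gene was called. Of 8 tested SOX genes other than Sox9 and Sox4, 0 were called lower or higher by edgeR, beside 14.1% of all tested genes. At that share few or no calls are expected among 8 genes, so the 0 does not set them apart. Of the 8, 1 was at an unadjusted p under 0.05, and DESeq2 and limma voom also called 0. Their median log2 change was 0.09, and -0.27 with library totals alone. The first by p-value was Sox6, a factor of muscle and cartilage, at 0.47 ± 0.15 (log2, SE; edgeR adjusted p = 0.0775), and without library 2 it alone was called, as higher. Sox15 and Sox12 came next, at log2 changes of 0.64 ± 0.54 and 0.25 ± 0.23 (SE), with edgeR adjusted p-values of 0.475 and 0.513.

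Cftr encodes the cyclic AMP-regulated chloride channel of the apical membrane, which drives secretin-stimulated bile flow, and hepatocytes largely lack it. Cftr (ENSMUSG00000041301; mm10 chr6:18170687-18322768, plus strand) was 0.620, 0.192 and 1.07 CPM in libraries 2, 3 and 2600 and 3.86, 5.15 and 6.32 CPM in libraries 28, 30 and 31. Library 3 held 12 Cftr counts (95% Poisson interval 6.20 to 21, counting error only), the smallest count of any member in any library. Cftr had the largest fall of the 8, 8.51-fold, with means of 0.627 ± 0.438 and 5.11 ± 1.23 CPM (SD, n = 3 each; log2 change -3.09 ± 0.46, SE; edgeR adjusted p = 0.00596). Its relative spread within the S100a11 shRNA group was also the widest, with a coefficient of variation of 70.0%.

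Pkhd1 encodes fibrocystin, a membrane protein of the primary cilium that is mutated in autosomal recessive polycystic kidney disease with congenital hepatic fibrosis. Pkhd1 (ENSMUSG00000043760; mm10 chr1:20057779-20618064, minus strand, 69 merged exons) was 64.4, 81.8 and 79.7 CPM in libraries 2, 3 and 2600 and 221, 252 and 202 CPM in libraries 28, 30 and 31. It was the most abundant of the 8 by count, and its libraries were tight within each group. The difference was 2.99-fold, from 225 ± 25.6 to 75.3 ± 9.47 CPM (SD, n = 3 each; log2 change -1.58 ± 0.16, SE; edgeR adjusted p = 0.00276). This was the smallest p-value and the smallest SE among the members.

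Krt23, an acidic keratin described in injured hepatocytes and in duct-like cells, went the other way. Krt23 (ENSMUSG00000006777; mm10 chr11:99477974-99493137, minus strand) was 7.70, 8.89 and 9.94 CPM in libraries 2, 3 and 2600 and 6.23, 4.55 and 5.34 CPM in libraries 28, 30 and 31. All 3 S100a11 shRNA libraries exceeded all scrambled libraries, by a smaller margin than any of the falls. It was 1.64-fold higher, with means of 8.84 ± 1.12 and 5.37 ± 0.840 CPM (SD, n = 3 each; log2 change 0.72 ± 0.19, SE; edgeR adjusted p = 0.0368). This call was lost with upper-quartile scaling (log2 change 0.62, edgeR adjusted p = 0.0548), with library totals alone (0.36, edgeR adjusted p = 0.183) and on leaving out any library other than library 2 (0.61 to 0.84, edgeR adjusted p = 0.0569 to 0.159). Measured relative to the median of all genes, which library totals alone moved to -0.32, the Krt23 difference was 0.68, 0.68 and 0.67 under TMM, upper-quartile and total scaling. Subtracting this median largely removes the effect of scaling for any gene, and Krt7 was likewise -1.50 under all of them. The agreement therefore cannot show whether Krt23 rose.

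The 7 falls held across the alternatives. All 105 combinations of these 7 members and 15 alternative settings kept the direction and the call, including the 6 that leave out a library, under which 2.54% to 12% of tested genes were called lower. The largest adjusted p-values over the settings were 0.0352 for Krt7, 0.0269 for Krt19, 0.0295 for Epcam and for Cftr, 0.0320 for Sox9, 0.0253 for Sox4 and 0.0184 for Pkhd1. Cftr ranged most, from -3.65 without library 2600 to -2.63 on the log2 scale.

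**Figure D2:**
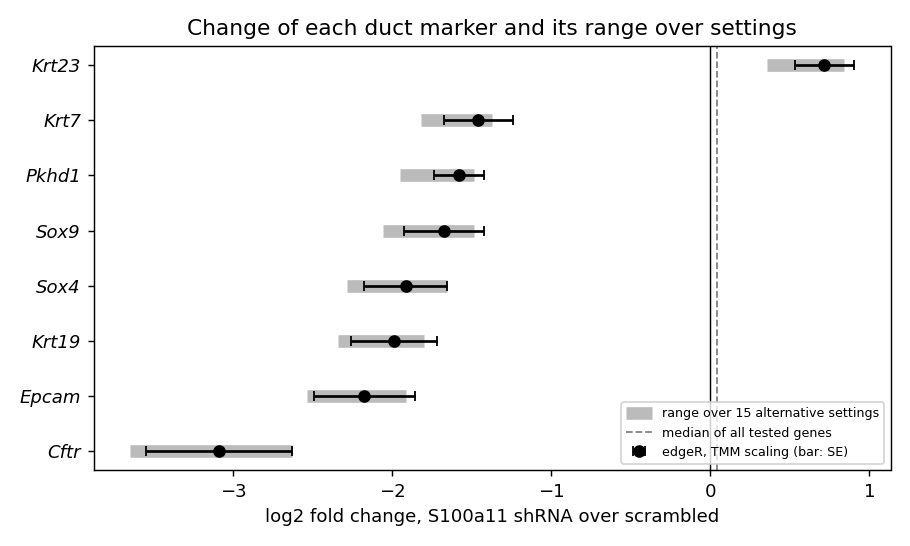
The horizontal axis is the log2 fold change of the S100a11 shRNA libraries over the scrambled libraries, with points and black bars for the edgeR estimate and its SE and grey bars for the range over 15 alternative settings. The grey bars of 7 markers end at -1.37 or lower, and that of Krt23 runs from 0.36 to 0.84, to the right of the dashed line at the median of all tested genes (0.04).

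Levels can be compared between genes only per transcript length, so CPM were divided by kilobases of merged exon (RPKM). In the scrambled libraries Pkhd1 was highest at 15.7 ± 1.79 RPKM, followed by Sox9 at 7.29 ± 0.410 and Sox4 at 5.78 ± 0.776 (SD, n = 3 each). These 3 levels did not overlap one another. Krt23 at 3.43 ± 0.536, Epcam at 3.12 ± 0.874 and Krt19 at 2.46 ± 0.603 RPKM came next, and each overlapped its neighbour in this order. Krt7 at 0.731 ± 0.129 and Cftr at 0.658 ± 0.158 RPKM were lowest and overlapped each other.

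The order changed at the top in the S100a11 shRNA libraries. There Krt23 at 5.65 ± 0.716 and Pkhd1 at 5.26 ± 0.661 RPKM were highest and overlapped, so the fourth member in scrambled libraries stood level with the first. Sox9 at 2.30 ± 0.917 and Sox4 at 1.54 ± 0.530 RPKM overlapped, as did Epcam at 0.698 ± 0.237 and Krt19 at 0.613 ± 0.134 RPKM. Krt7 at 0.265 ± 0.0206 RPKM lay below them, and Cftr at 0.0807 ± 0.0565 RPKM lay below all others. For each member the exact two-sided permutation test between groups gave p = 0.1, the smallest value that 3 against 3 libraries allow, and 0.1 after adjustment over the 8.

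**Figure D3:**
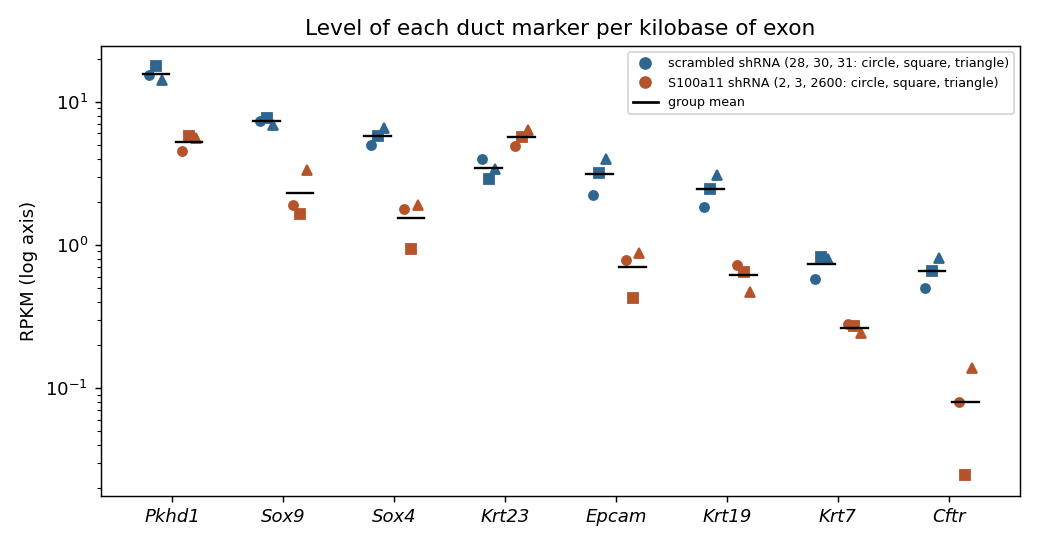
The vertical axis, on a log scale, is RPKM for each marker in each library, ordered by the scrambled mean, with 1 symbol per library and black lines for group means. Pkhd1 falls from 15.7 to 5.26 RPKM while Krt23 rises from 3.43 to 5.65, so that they meet at the top of the S100a11 shRNA values.

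The members were also set against Epcam within each library, a ratio that library scaling cannot alter. The log2 ratio of Krt23 to Epcam was 2.65, 3.72 and 2.85 in libraries 2, 3 and 2600 against 0.84, -0.13 and -0.22 in libraries 28, 30 and 31. That is a difference of 2.91. Epcam itself changed by -2.19 in log2 RPKM and Krt23 by 0.72, so the larger part of this difference is the fall of Epcam. The Cftr ratio was lower by 1.13, at -3.30, -4.12 and -2.68 against -2.16, -2.26 and -2.29, so each S100a11 shRNA library had less Cftr per Epcam than any scrambled library. The Krt7 ratio differed the other way, by 0.74. These 3 of 7 ratios did not overlap between groups, each with an exact two-sided permutation p of 0.1, the smallest possible, and 0.233 after adjustment over the 7. The share of all genes whose ratio to Epcam does not overlap was not computed. Because Epcam fell, a gene that did not change would also have a higher ratio. Pkhd1, Sox9, Sox4 and Krt19 differed from Epcam by 0.61, 0.45, 0.21 and 0.19 on the log2 scale, with overlapping groups and exact permutation p-values of 0.2 to 0.7. Without scrambled library 28, where Epcam was lowest among the scrambled libraries, 6 of the 7 ratios did not overlap.

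**Figure D4:**
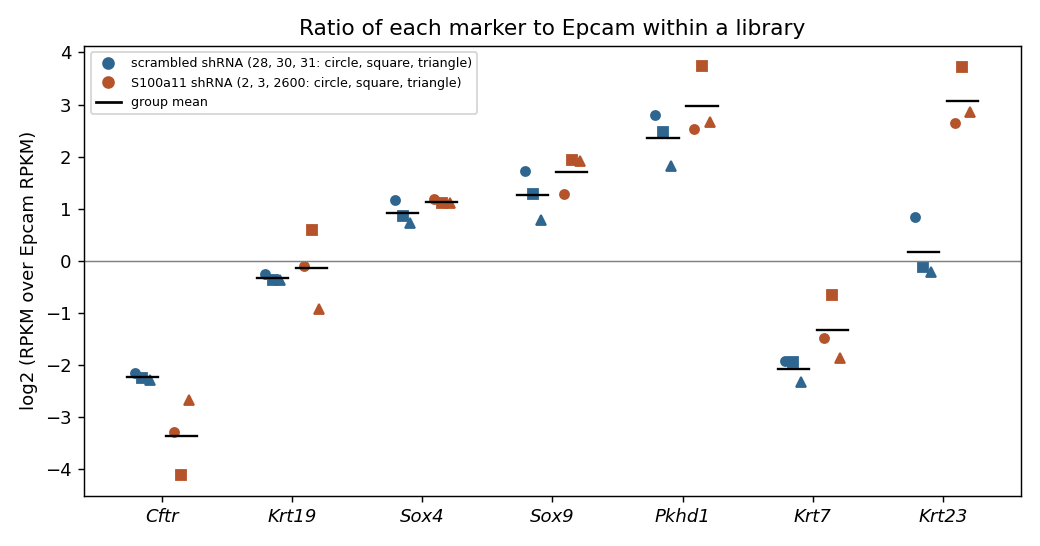
The vertical axis is the log2 ratio of each marker's RPKM to that of Epcam in the same library, with 1 symbol per library and black lines for group means. The groups separate for Cftr (lower by 1.13), Krt7 (higher by 0.74) and Krt23 (higher by 2.91) and overlap for the other 4.

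The promoters of 2 members illustrate sequence that the choice of members did not use. Of the 8, 6 (Krt7, Krt23, Epcam, Sox4, Cftr and Pkhd1) matched the RefSeq promoter table of GRCm38.p6, the same assembly as mm10, and the 250 bases before the start site were searched on both strands for short motifs, of which 5 are given here. The TEAD motif GGAATG, for the factors through which YAP acts, was found in 1 member, Sox4, 168 bases before the start, and in 12.6% of all 32851 promoters. None of the 6 held the RBPJ motif (GTGGGAA), the ONECUT motif (ATTGAT), the SOX motif (ACAAAG) or the TATA box (TATAAA) in these letters, which 5.42%, 6.72%, 16.5% and 12.4% of promoters hold. The GC content of the 6 windows ran from 42.0% in Pkhd1 to 76.4% in Cftr. The Sox4 window (chr13:28953700-28953949, minus strand) is shown because it holds the TEAD match, in capitals, and the Krt23 window (chr11:99493121-99493370, minus strand) because Krt23 alone was higher. The Krt23 window holds none of these 5 motifs. Both are written 5′ to 3′ on the gene's strand.
Sox4: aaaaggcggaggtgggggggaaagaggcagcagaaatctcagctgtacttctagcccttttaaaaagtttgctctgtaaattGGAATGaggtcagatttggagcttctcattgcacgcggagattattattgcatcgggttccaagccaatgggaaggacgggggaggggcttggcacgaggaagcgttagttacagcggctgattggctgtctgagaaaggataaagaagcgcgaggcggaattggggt
Krt23: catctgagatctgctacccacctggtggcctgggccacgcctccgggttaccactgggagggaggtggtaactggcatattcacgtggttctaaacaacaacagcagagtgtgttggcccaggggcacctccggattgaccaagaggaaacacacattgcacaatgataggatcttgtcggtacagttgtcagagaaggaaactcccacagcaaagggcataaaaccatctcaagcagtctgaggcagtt

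Krt19 and Krt23 lie 647.673 kb apart in the type I keratin cluster of chromosome 11, yet their changes had opposite signs. The stretch from one to the other, both included, holds 11 protein-coding genes whose symbol is Krt followed by digits alone. Keratin genes whose symbol ends in a letter were not counted. Of these 11, the 9 between Krt23 and Krt19 had at most 1 count in any library, and 7 of those had 0 in all. On the far side of Krt23, 39.8 kb away, Krt20, a keratin of gut and urothelium, fell from 0.455 ± 0.185 to 0.0647 ± 0.0649 CPM (SD, n = 3 each; log2 change -2.66, edgeR adjusted p = 0.0233), a call lost without library 3, 2600, 28 or 30.

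Around all 8 members, the nearest tested protein-coding gene on each side gave 14 that were not members themselves, of which edgeR called 7, each lower, beside 8.28% of all tested genes called lower. The count was 3 without library 30, where 2.54% of all tested genes were called lower. It was 4 without library 3, 2600 or 28, where 2.96%, 6.29% and 5.18% were. Both neighbours of Cftr were among the 7, beside Krt8, Krt20, Kcnj2, Dcdc2a and Pi15. Some of these lay far off: Krt8 was 566 kb from Krt7 and Kcnj2 1705 kb from Sox9. Pi15 was 2427 kb from Pkhd1 and Dcdc2a 3738 kb from Sox4. The Pi15 call was lost on leaving out any library other than library 2. Krt8 and Krt20 are also on the list of simple keratins. Asz1, a germ-cell gene 61.6 kb from Cftr, was 0.222 ± 0.222 against 3.02 ± 0.831 CPM (SD, n = 3 each; log2 change -3.92, edgeR adjusted p = 0.00456), and the change was -4.99 without library 2600. Cttnbp2, 43.7 kb away on the other side, was 2.38 ± 0.706 against 6.11 ± 1.07 CPM (SD, n = 3 each; log2 change -1.37, edgeR adjusted p = 0.0114, and 0.0578 without library 30). Among those not called, Slc39a11, a zinc transporter beside Sox9, differed by 0.00 (edgeR adjusted p = 0.990). Cdkal1 beside Sox4 differed by 0.05 and Mcm3, a replication licensing gene beside Pkhd1, by 0.20, with edgeR adjusted p-values of 0.877 and 0.717.

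Genes with the most similar pattern were sought among 12178 genes with at least 2 CPM on average, by the root mean square difference of centred log2 CPM over the 6 libraries. The nearest to the mean of the 8 members were Dcdc2a (0.124), a ciliary doublecortin-family gene mutated in neonatal sclerosing cholangitis, Enah (0.126), an actin regulator, and Kcnn4 (0.129), a potassium channel. Sestd1 (0.129) and Vstm4 (0.147) followed. Dcdc2a was 4.68, 4.04 and 6.59 CPM in libraries 2, 3 and 2600 and 14.8, 19.6 and 18.8 CPM in libraries 28, 30 and 31, with no overlap.

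For single members, the nearest gene to Epcam was Cdh1 (0.131), the epithelial cadherin, and to Cftr it was Foxj1 (0.173), a regulator of motile cilia. Pkhd1 was nearest to Eln (0.118), the elastin gene, Sox9 to Spon2 (0.151), and Sox4 to Ephb2 (0.160), an ephrin receptor. Krt7 was nearest to Angpt1 (0.0927), an angiopoietin, and Krt19 to Clmp (0.0777), a junctional adhesion molecule. Krt23 was nearest to Sugct (0.0441), a mitochondrial CoA-transferase, which was 29.2, 31.7 and 34.8 CPM against 23.5, 17.2 and 19.4 CPM. These distances describe likeness over 6 libraries only. Among the members themselves, the distance to the mean of the other 7 was 1.40 for Krt23 and 1.06 for Cftr, and 0.250 to 0.428 for the rest.

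Other genes of the duct programme were called lower more often than higher. Of 119 tested genes on 7 duct lists, the members and the SOX list left out, 53 were called lower and 4 higher by edgeR, beside 8.28% lower and 5.82% higher of all tested genes, and their median log2 change was -0.70. The count lower was 32 without library 3, where 2.96% of all tested genes were called lower, and 35 without library 30, where 2.54% were. Without library 2, 2600, 28 or 31 the share of all tested genes called lower was 12%, 6.29%, 5.18% and 3.47%. List counts below that leave out a library are to be read beside these shares. The lists include genes that hepatocytes or other liver cells also express.

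Junction and surface genes, the list around Epcam, had 15 of 21 called, each lower, with a median log2 change of -1.74. Cldn4, a tight junction claudin, was 12.1-fold lower, Spint1, an inhibitor of matriptase, 4.86-fold and Itga6, a laminin-receptor integrin, 2.39-fold (edgeR adjusted p = 0.00351, 0.00351 and 0.00334). Of the secretory and transport genes around Cftr, 6 of 15 were called, each lower, while the median of the list was 0.20, or -0.17 with library totals alone. Sctr, the secretin receptor that acts upstream of Cftr, fell 10.2-fold from 3.18 ± 0.880 to 0.308 ± 0.157 CPM (SD, n = 3 each; edgeR adjusted p = 0.00351). Slc5a1, a sodium-glucose transporter, was 4.80-fold and Kcnn4 2.86-fold lower (edgeR adjusted p = 0.00374 and 0.00864). The transport count fell to 3 on leaving out any scrambled library. The share of all tested genes called lower also fell, to 5.18%, 2.54% and 3.47% without library 28, 30 and 31.

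Of the simple keratins beside the member keratins, 3 of 4 were called, each lower, with a median log2 change of -1.05. Krt18 was 1.98-fold lower, at 144 ± 19.5 against 285 ± 49.3 CPM (SD, n = 3 each; edgeR adjusted p = 0.00942), and its partner Krt8, at 279 ± 43.0 against 457 ± 96.2 CPM, was 1.64-fold lower (edgeR adjusted p = 0.0424). Both are also keratins of hepatocytes. Without library 3, 2600, 28 or 30 only 1 of these keratins was called.

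Among duct transcription factors other than Sox9 and Sox4, 8 of 20 were called, each lower, with a median of -0.63 and a count of 5 without library 3, 30 or 31. Glis3, a Krüppel-like zinc finger factor whose loss gives cystic kidneys, was 3.53-fold, Grhl2, a grainyhead factor of epithelial junctions, 5.06-fold and Ehf, an epithelial ETS factor, 5.22-fold lower (edgeR adjusted p = 0.00320, 0.00320 and 0.00351). Of the cystic disease genes related to Pkhd1, 4 of 17 were called, each lower, with a median of -0.11. Bicc1, an RNA-binding protein, was 3.27-fold and Dzip1l, a ciliary transition zone protein, 2.57-fold lower, and Glis3 is also on this list (edgeR adjusted p = 0.00351 and 0.00774).

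Among signals known to drive ductular reactions 8 of 24 were lower and 2 higher, with a median of -0.52. Itgb6, the subunit of an integrin that activates TGF-beta, was 10.4-fold, Tgfb2, a TGF-beta ligand, 2.80-fold and Wnt7b, a Wnt ligand, 9.11-fold lower (edgeR adjusted p = 0.00320, 0.00786 and 0.00818). The Wnt7b change was -3.19 on the log2 scale and -4.09 without library 2. The 2 higher genes, named after their values were seen, were the growth factor receptors Egfr, 3.00-fold, and Met, 1.51-fold (edgeR adjusted p = 0.0114 and 0.0349). Both calls were lost without library 30, and that of Met also without library 2600, 28 or 31 and with library totals alone. The count lower was 3 without library 3, 30 or 31 and 13 without library 2. It was also 13 with upper-quartile scaling, which called 10.2% of all tested genes lower, and 17 with library totals alone, which called 20.5% lower.

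Of the products secreted by ductular cells 10 of 19 were lower and 2 higher, with a median of -0.81, and the count lower was 6 without library 28 or 31. Spp1, osteopontin, was 5.90-fold and Lcn2, lipocalin 2, 3.37-fold lower (edgeR adjusted p = 0.00320 and 0.00449). The 2 higher genes, also named after their values were seen, were the laminin chains Lama3, 2.96-fold, and Lamb3, 2.01-fold (edgeR adjusted p = 0.0233 and 0.0125). Both calls were lost without library 30, and that of Lama3 also without library 3, 2600, 28 or 31 and with limma voom.

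**Figure D5:**
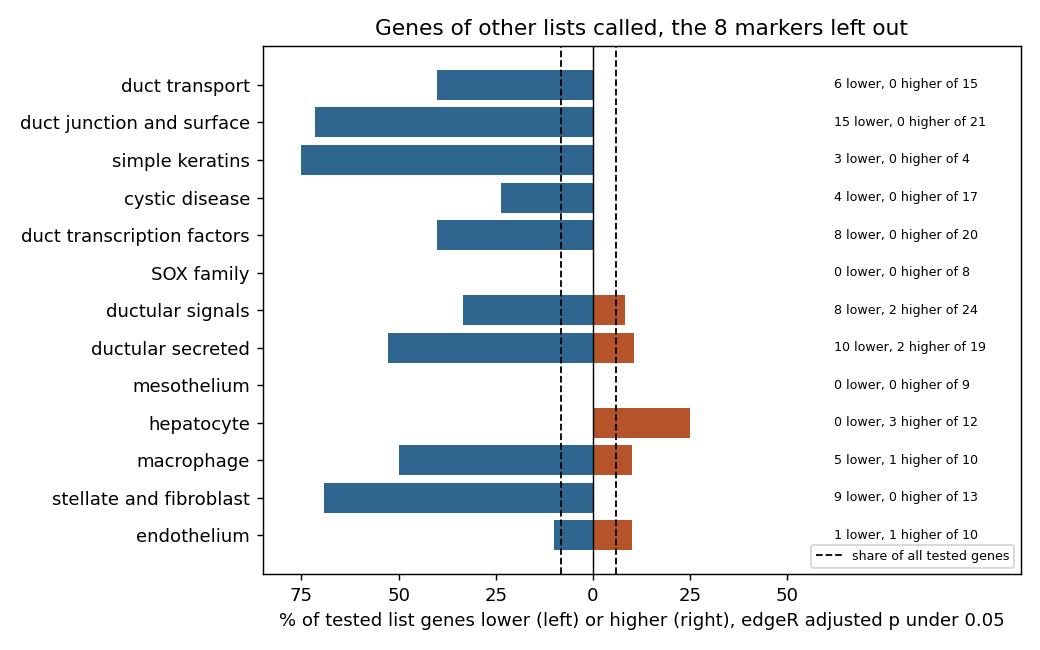
Bars give the percentage of tested genes on each list shown, the 8 markers left out, that edgeR called. Bars to the left are genes called lower in the S100a11 shRNA libraries, and bars to the right genes called higher. Dashed lines give the shares over all tested genes, 8.28% and 5.82%. The list of pancreas, gut and gallbladder markers, with 1 of 6 lower, is not drawn. Junction and surface genes have 15 of 21 lower and other SOX genes 0 of 8.

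Markers of other cell types that can carry some of these transcripts were measured beside them. Mesothelial cells of the liver capsule make Krt7 and Krt19. Their 9 tested markers gave 0 calls in edgeR, beside 14.1% of all tested genes, with 3 at an unadjusted p under 0.05. At that share few or no calls are expected among 9 genes, so the 0 does not show that they were unchanged. DESeq2 gave 1 call, limma voom 0 and library totals alone 2. The median log2 change was 0.43, and it was -0.72 with limma voom and -0.48 for the 4 genes with at least 1 CPM in 3 libraries. Wt1, at -1.71, Gpm6a, at -0.73, and Upk1b, at 1.31, came first by p-value (edgeR adjusted p = 0.0831, 0.0999 and 0.146). The summed level was 4.27 to 15.04 CPM in the S100a11 shRNA libraries and 13.7 to 21.7 in the scrambled ones. It was lowest in library 2600, where Upk3b, Bnc1, Rspo1 and Muc16 were at 0 counts and where Krt7 and Krt19 were also lowest. Without library 2600 Krt7 changed by -1.41 and Krt19 by -1.85 on the log2 scale (edgeR adjusted p = 0.0160 and 0.0126).

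Pancreatic ducts also carry Cftr, Krt19, Epcam and Sox9. Of 17 markers of pancreas, gut and gallbladder, 6 were tested and 1, Cpa1, was lower (edgeR adjusted p = 0.0307), beside 8.28% of all tested genes. With 6 genes tested, this count does not set the list apart from that share. The Cpa1 call was lost without library 2, 3, 2600 or 31. Exocrine pancreas genes were highest in library 31, with 127 counts of Cpa1 against 3, 0 and 0 in libraries 2, 3 and 2600 and 11 and 10 in libraries 28 and 30, and with 154 counts of Pnlip against at most 8 elsewhere. Krt19, Epcam, Sox4 and Cftr were also highest in library 31. Without it Krt19 changed by -1.80, Epcam by -1.96, Sox4 by -1.81 and Cftr by -2.90 (edgeR adjusted p = 0.0190, 0.0211, 0.0178 and 0.0214). The other 2 pancreas and gut genes first by p-value, Cela2a and Fabp2, were not called (edgeR adjusted p = 0.0588 and 0.229).

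Markers of other liver cell types were also compared, where 8.28% of all tested genes were called lower and 5.82% higher. Hepatocyte markers had 3 of 12 called, each higher, with a summed level of 53484 to 67429 CPM against 37647 to 47412 CPM and a median log2 change of 0.48. These sums rest on TMM scaling. With library totals alone 3 hepatocyte markers were still called higher, but the median was 0.14. The first 3 by p-value, Serpina1c, Cyp2e1 and Tat, were 2.87-fold, 3.33-fold and 2.50-fold higher (edgeR adjusted p = 0.00351, 0.00904 and 0.0119), the last at 0.0519 without library 30. Stellate cell and fibroblast markers had 9 of 13 called, each lower, with a median of -1.10, a summed level of 362 to 659 CPM against 802 to 1172 CPM, and 3 or 4 lower on leaving out any library other than library 2. Eln, Pdgfrb and Pdgfra were 3.26-fold, 2.46-fold and 2.14-fold lower (edgeR adjusted p = 0.00247, 0.00374 and 0.00543). Macrophage markers had 5 of 10 lower and 1 higher, with a median of -0.84 and a summed level of 213 to 370 CPM against 443 to 602 CPM. Cd9 and Trem2, genes of lipid-associated macrophages, were 2.83-fold and 4.57-fold lower and Timd4, of resident Kupffer cells, 4.98-fold higher (edgeR adjusted p = 0.00320, 0.00320 and 0.00334). Clec4f and Vsig4, also Kupffer cell genes of this list and named after their values were seen, did not share the Timd4 rise. Their log2 changes were 0.00 and -0.54 (edgeR adjusted p = 0.999 and 0.313). Endothelial markers had 1 of 10 lower and 1 higher, near the shares over all tested genes. Their median was 0.17 (-0.20 with library totals alone) and their summed level was 910 to 1290 CPM against 938 to 1027 CPM. Clec4g was 1.76-fold higher and Lyve1 was 1.44-fold lower, while Kdr differed by 0.37 on the log2 scale (edgeR adjusted p = 0.0110, 0.0448 and 0.0783). The Clec4g call was lost without library 30, and the Lyve1 call on leaving out any library other than library 2. Whether these differences in other cells bear on the duct markers was not tested.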

How the data were processed

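Liver total RNA was depleted of ribosomal RNA and made into stranded libraries, per the labels. The authors deposited raw counts per Ensembl gene, on mm10 per the submitters' processing notes. Not given in the sources used here are the aligner, the counting tool and how it treated strand. Groups came from the labels (S100a11 shRNA 2, 3 and 2600; scrambled shRNA 28, 30 and 31). Depth was 53517387 to 78091845 counts, and Poisson intervals (95%) cover counting error only.

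The counts were compared in R 4.3.3 with edgeR 4.0.16 (TMM, filterByExpr with minimum count 10 and minimum total 15, quasi-likelihood F test, Benjamini-Hochberg over 19352 genes, threshold 0.05). SE is the log2 change divided by the square root of F. RPKM used merged exons of GENCODE M21, to which 42462 genes matched by identifier. The procedure was tested on simulated data. Exact permutation tests used scipy 1.17.1. Alternatives were RLE and upper-quartile factors, library totals alone, no filter, at least 1 CPM in 3 libraries, protein-coding genes only, DESeq2 1.42.0, limma 3.58.1 voom, leaving out each library, RPKM by totals or by longest transcript, Pkhd1 as denominator, and the legacy quasi-likelihood, which was chosen after seeing the data.

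The 8 members and the 14 lists were chosen with earlier results of these data known. Named genes were the members, S100a11, the first 3 tested genes of each list by p, the nearest profiles and neighbours by position. Some genes and motifs that these rules name are not reported here.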

Additional observations from a re-analysis of the deposited data

How the results depend on the processing

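Of the 105 values of the main results under alternatives, 87 were labelled the same and 18 were not. Counts and the median of the members were labelled the same within a set tolerance. For log2 changes of single genes, S100a11 included, only direction and side of the threshold were judged, not size. The count of members lower stayed at 7 under all alternatives run, and the count of members higher, 1 with TMM scaling, was 0 with upper-quartile factors and with library totals alone and 0 to 1 on leaving out each library. The median log2 change of the members was -2.17 with library totals alone. The S100a11 change passed the threshold at -1.90 with library totals alone (edgeR adjusted p = 0.0424) and at -1.89 with limma voom (adjusted p = 0.0417), and ran from -2.75 to -1.22 on leaving out each library. The number of other duct genes lower was 32 to 61 and the number higher 0 to 7 on leaving out each library. Ratios to Epcam whose groups did not overlap numbered 3 to 6 on leaving out each library. The cause of these differences was not tested. Among 582 values for the log2 changes of the 8 members, the counts called on single lists and the ratios to Epcam, 512 were the same, 63 moved, 7, all for Krt23, lost their call, and none reversed. Other named genes and list medians are not among these values, and some of them lost a call or changed sign. No paired analysis was possible because the groups share no replicate numbers. Leaving out a library leaves 2 in its group, and the counts for Cftr in library 3 and for pancreas and mesothelium genes are low, which limits their precision.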
